A study of Mus musculus with 12 samples.

Results

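The Notch pathway was described here through 10 genes of 23735 gene models measured by mRNA sequencing in stem cells of the hair follicle, purified from dorsal skin of mice. The genes were taken by symbol: the receptors Notch1, Notch2 and Notch3, the ligands Jag1, Jag2 and Dll1, the receptor-modifying enzyme gene Lfng, and the target genes Hes1, Hey1 and Nrarp. Each symbol stood on a single row of the tables, and all 10 genes were tested by the authors in every comparison used below. The 12 libraries fall into 7 groups. Of these, 5 groups bear on what changes in these cells when the transcription factor Foxc1 is lost. The other 2, of 1 library each, hold no Foxc1 knockout and differ in hair cycle stage.

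Growth-phase (anagen) cells came from males at postnatal day 30 of a Black Swiss/ C57BL/6 mix. In 2 inducible knockout libraries (anagen iKO) Foxc1 was removed with Sox9CreER, a tamoxifen-activated Cre made in Sox9-expressing cells, and 2 FOXC1-Sox9CreER-heterozygous libraries (anagen Het) were the controls. Tamoxifen was given to the Sox9CreER mice, and it also switched on a YFP reporter. Black Swiss mice in the second resting phase (second telogen) gave the conditional knockout (telogen cKO, K14Cre) and wild-type (telogen WT) groups. Each of these holds 1 male library of day 42 and 1 female library of day 46. K14Cre acts in keratin 14-expressing epithelium. A further 2 iKO libraries of second telogen (telogen iKO, Sox9CreER) came from males of the mixed strain at day 60. Agouti Shh-Het females gave 1 library of anagen substage II at about day 26 and 1 library of first telogen at about day 23, which the titles call WT. Every FPKM value (fragments scaled to transcript length and library size), log2 fold and q (the p of the authors' Cuffdiff test, adjusted over genes) below is from the authors' deposited tables, with 1 pooled value per group. Standard errors (SE), intervals and normal p-values were computed from the deposited statistic. A gene is called at a q below 0.05. No spread between libraries can therefore be given for a level, and sequencing depth is unknown.

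Notch signalling runs between touching cells. A ligand of the Jagged or Delta family on one cell binds a Notch receptor on its neighbour, the receptor is cleaved by ADAM proteases and then by gamma-secretase, and its freed intracellular domain joins the DNA-binding protein RBPJ and Mastermind to switch on targets such as the Hes and Hey repressors and the feedback inhibitor Nrarp. In skin, Notch is known for driving suprabasal differentiation of epidermis and for keeping follicle cells in the hair lineage.

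The targeted gene and the markers set the frame. Foxc1 had 1.40 FPKM in anagen iKO against 23.9 in anagen Het cells, 1.59 in telogen cKO against 26.5 in telogen WT cells, and 3.17 in telogen iKO against 27.5 in telogen WT cells. Of 10 bulge stem cell markers, 9 were detected in all 7 groups, with summed levels of 673 to 1861 FPKM. The other, Krt15, was listed at 0 in anagen Het, telogen cKO and telogen WT cells and at 3294 to 9222 FPKM elsewhere. The authors' deposited tables mark Krt15 as having too much data to fit there, so those zeros are not levels. The summed level of 8 fibroblast markers was 34.2 to 118 FPKM in the 5 groups of 2 libraries, against 1092 in anagen II and 2304 in first telogen cells. All 8 cycling-cell markers were higher in each knockout comparison against its control, with sums of 231 against 62.3 FPKM in anagen iKO and Het cells, and of 72.4 against 8.32 FPKM in telogen cKO and WT cells. Fewer cells of a type and less RNA per cell cannot be told apart in such bulk samples.

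The upstream sequences of Lfng, Nrarp and Jag1 are shown because these 3 genes rose together in anagen iKO cells, as given below; Lfng was added to the set after its values were seen. RBPJ recognises sites with the letters GTGGGAA, and its shorter core TGGGAA lies inside that motif, so each match of the longer motif also counts for the shorter. Both strands of the 250 bases before the gene start were searched in the RefSeq table (build GRCm38.p6), which held 8 of the 10 genes, all but Hes1 and Hey1. Capitals mark the matches, and every sequence runs 5′ to 3′ on the gene's own strand.
Lfng, chr5:140607091-140607340, plus strand: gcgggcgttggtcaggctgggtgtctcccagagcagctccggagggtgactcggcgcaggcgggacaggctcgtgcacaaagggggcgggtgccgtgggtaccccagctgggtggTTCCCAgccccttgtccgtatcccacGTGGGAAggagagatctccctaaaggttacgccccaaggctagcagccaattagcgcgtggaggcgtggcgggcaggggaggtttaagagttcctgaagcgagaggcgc
Nrarp, chr2:25180508-25180757, plus strand: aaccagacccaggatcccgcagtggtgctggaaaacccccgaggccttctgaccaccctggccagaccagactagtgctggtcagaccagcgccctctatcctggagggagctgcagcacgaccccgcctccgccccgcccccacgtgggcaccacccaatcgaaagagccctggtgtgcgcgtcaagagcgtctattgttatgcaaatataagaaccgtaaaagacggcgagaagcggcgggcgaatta
Jag1, chr2:137116521-137116770, minus strand: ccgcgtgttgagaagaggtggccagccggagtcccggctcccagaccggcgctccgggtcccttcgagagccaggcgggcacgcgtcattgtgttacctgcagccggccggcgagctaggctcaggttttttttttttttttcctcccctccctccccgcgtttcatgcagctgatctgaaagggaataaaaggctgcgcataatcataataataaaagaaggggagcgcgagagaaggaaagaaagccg

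The Lfng window held 1 match to GTGGGAA on the gene's strand and a further match to TGGGAA on the opposite strand, while the windows of the other 7 genes, Nrarp and Jag1 among them, held neither. Of 32851 windows of the same length over all genes, 5.42% held GTGGGAA and 21.6% held TGGGAA. These matches describe letters in a short window and say nothing of binding.

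Across the 7 groups of the joint table, the ligand Jag2 and the receptor Notch1 led their families on this per-length scale. Notch1 (XLOC_011961, chromosome 2 from 26313421 to 26359342 in build mm9) had 16.4 to 40.4 FPKM. Notch2 (XLOC_013194, chromosome 3 from 97817460 to 97954290) had 3.23 to 8.01 FPKM, and Notch3 (XLOC_009143, chromosome 17 from 32257837 to 32303797) had 2.19 to 7.31 FPKM. Notch1 therefore stood above both others in all 7 groups, 2.37 to 9.66 times the level of Notch2. The fourth mammalian receptor gene, Notch4, known for its role in endothelium, stayed below 1 FPKM in every group.

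Among the ligands, Jag2 (XLOC_004966, chromosome 12 from 114146800 to 114167706) had 81.3 to 129.7 FPKM and was the flattest of the 10 genes, with its highest group 1.59 times its lowest. Jag1 (XLOC_012587, chromosome 2 from 136907186 to 136942256) had 36.5 to 79.2 FPKM, and Dll1 (XLOC_008981, chromosome 17 from 15504317 to 15512787) had 5.53 to 15.02 FPKM. Jag2 was 2.75 times the level of Jag1 in anagen II cells and 1.03 times in telogen iKO cells, where Jag1 was at its highest. Lfng (XLOC_015983, chromosome 5 from 141083294 to 141091499), which adds a sugar to Notch receptors and so shifts their response to ligands, had 29.3 to 62.7 FPKM.

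The 3 target genes differed widely in level. Hes1 (XLOC_007745, chromosome 16 from 30065442 to 30067882) had 47.8 to 151 FPKM, Nrarp (XLOC_010947, chromosome 2 from 25036277 to 25038852) had 13.3 to 37.6 FPKM, and Hey1 (XLOC_013407, chromosome 3 from 8663358 to 8667038) had 1.02 to 4.62 FPKM. The order of Hes1 over the 7 groups, from high to low, was telogen iKO at 151, telogen WT at 96.99, first telogen at 79.2, anagen II at 59.7, telogen cKO at 52.3, anagen Het at 49.3 and anagen iKO at 47.8 FPKM. Among the 5 groups of 2 libraries, telogen iKO differed from telogen WT and telogen WT from telogen cKO at a deposited q below 0.05, and telogen cKO, anagen Het and anagen iKO were not called against their neighbours among these. For Hey1 the highest of these 5 groups, anagen Het at 2.52 FPKM, differed from each of the other 4, which lay between 1.02 and 1.32 FPKM. For Notch2, telogen cKO differed from the next lower group, anagen Het (Cuffdiff q = 0.0019). No neighbours in the order of Notch1, Notch3, Jag1, Jag2, Dll1, Lfng or Nrarp differed, and none of the 10 pairs of these groups was called for Jag2 or Dll1.

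**Figure D1:**
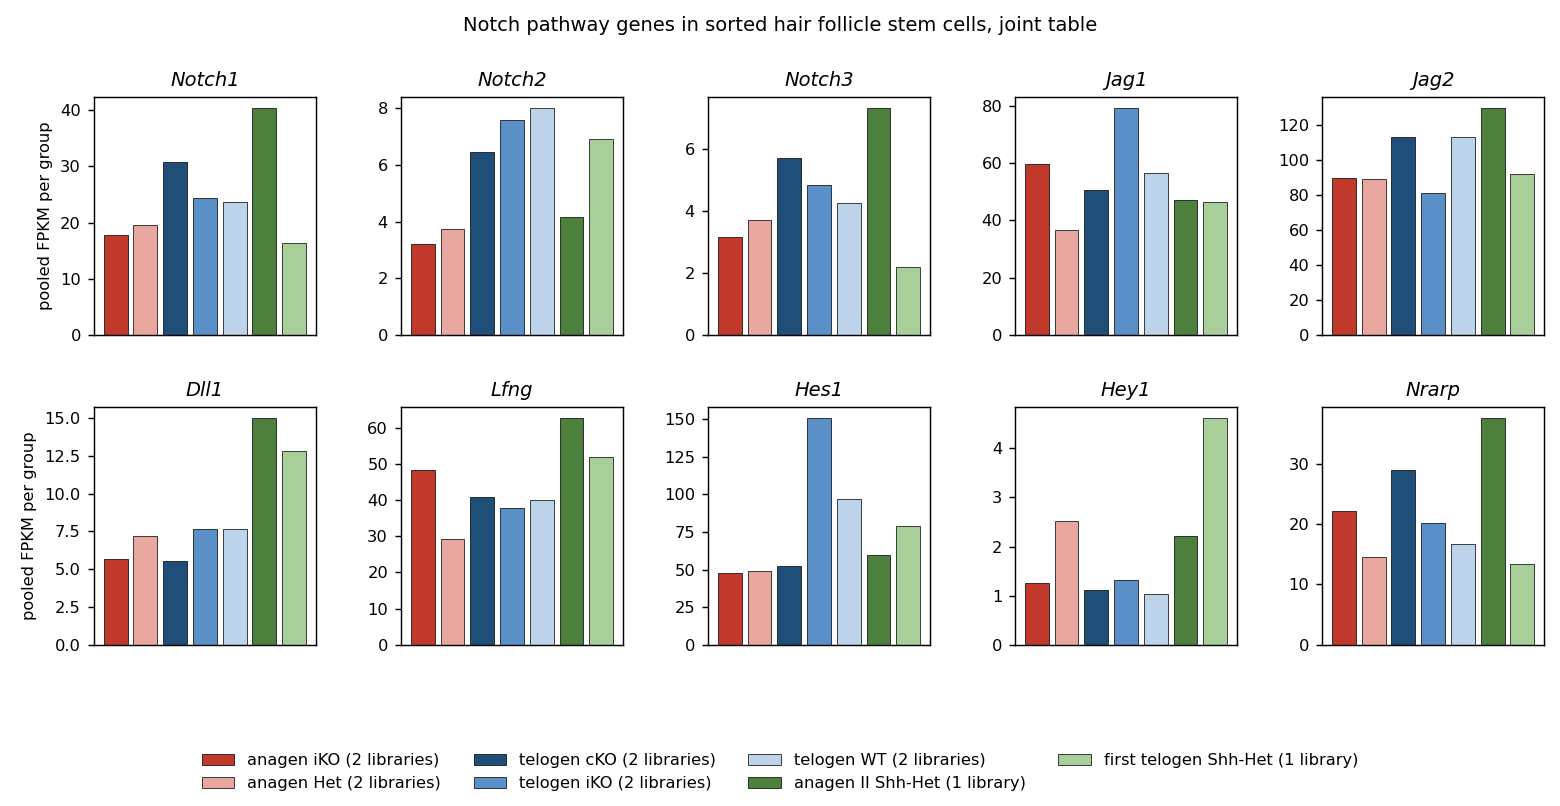
Pooled FPKM (y axes, from 0, scaled per gene) of the 10 Notch pathway genes in the 7 groups of the joint table; bars are single pooled values without error. Hes1 stands highest in telogen iKO cells at 151 FPKM, and Notch1, Notch3, Jag2, Dll1, Lfng and Nrarp are highest in the single anagen II library.

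Loss of Foxc1 in anagen went with more Lfng, Jag1 and Nrarp and less Hey1, while the receptors did not pass the test. In the anagen table deposited by the authors, 4 of the 10 genes were called at q below 0.05, where 10.3% of all 13716 tested genes were. Of the members 3 had higher levels in iKO cells and 1 a lower level, against 5.18% and 5.08% of all tested genes. The members and the question were chosen with earlier results of these data known, so this count is a description. The median log2((FPKM + 1) ratio) of the 10 genes was -0.09, beside -0.02 over all tested genes.

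Lfng had 51.2 FPKM in iKO cells against 31.1 in Het cells, 1.65-fold higher, with a log2 fold of 0.72 (SE 0.23) and a Cuffdiff q of 0.0011. Jag1, whose protein activates Notch on neighbouring cells, had 63.3 FPKM in iKO cells against 38.7 in Het cells, 1.63-fold higher (log2 fold 0.71, SE 0.24, Cuffdiff q = 0.0011). Nrarp, whose ankyrin-repeat protein dampens Notch signalling, had 23.6 FPKM in iKO cells against 15.3 in Het cells, 1.54-fold higher (log2 fold 0.62, SE 0.23, Cuffdiff q = 0.017). A modifier, a ligand and a target were thus called with folds of similar size. Of 9 tested bulge stem cell markers 4 were lower in iKO cells and none higher, with Npnt at 90.9 FPKM in iKO against 231 in Het cells and Cd34 at 244 against 432. The sum of the 9 was 821 FPKM in iKO against 1259 FPKM in Het cells in the joint table. Of 7 suprabasal epidermis markers Krt1 (122 FPKM in iKO against 77.7 in Het cells) and Krtdap (494 against 192) were higher and none lower. The part of these markers in the Lfng, Jag1 and Nrarp results was not tested.

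Hey1, which encodes a repressor of the Hes family, fell to 1.33 FPKM in iKO cells, against 2.67 in Het cells, with a log2 fold of -1.002 (SE 0.41) and a Cuffdiff q of 0.034. Hey1 is also expressed by blood vessels. Of 9 tested endothelial and pericyte markers 2 were lower in iKO cells and none higher. The markers that fell were Tek (2.73 FPKM in iKO against 4.67 in Het cells) and Vwf (0.116 against 0.697 FPKM). The summed level of the list was 42.3 FPKM in iKO against 51.4 in Het cells. Most of it came from Cspg4, which was not called (35.7 against 41.2 FPKM). Of 8 fibroblast markers 3 were lower, with sums of 71.7 FPKM in iKO against 125 in Het cells. Of 12 hair shaft, matrix and inner root sheath markers 8 were lower and none higher. The sum of these 12 was 686 FPKM in iKO against 654 in Het cells, most of it from Krt85, which was not called (496 against 394 FPKM). Their part in the Hey1 result was not tested.

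The other members were not called in anagen. Hes1 had 50.7 FPKM in iKO against 52.2 in Het cells, with a log2 fold of -0.04 and an approximate 95% interval of -0.46 to 0.37. Jag2 had 94.8 FPKM in iKO against 94.3 in Het cells, with an interval of -0.48 to 0.49 for its log2 fold. Notch1 had 18.8 against 20.8 FPKM, Notch2 3.42 against 3.98, Notch3 3.34 against 3.93 and Dll1 6.01 against 7.64, with the iKO value first in each pair. None of these 4 differences, of 1.11- to 1.27-fold, passed the test. With a normal p computed from the deposited statistic in place of the authors' p, Lfng alone stayed called (adjusted p = 0.027), and Jag1 had an adjusted p of 0.053, Nrarp of 0.093 and Hey1 of 0.16.

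In second telogen, cKO cells had less Hes1 and more Nrarp than WT cells, so a pair of pathway targets moved in opposite directions. In the authors' deposited telogen table these 2 of the 10 genes were called, where 6.62% of all 13551 tested genes were called, 3.75% higher and 2.87% lower. The median log2((FPKM + 1) ratio) of the 10 genes was 0.01, beside 0.00 over all tested genes. Hes1 fell to 50.1 FPKM in cKO cells, against 93.5 in WT cells, 1.87-fold lower (log2 fold -0.90, SE 0.29, Cuffdiff q = 0.012). Nrarp had 27.9 FPKM in cKO cells against 16.03 in WT cells, 1.74-fold higher (log2 fold 0.80, SE 0.29, Cuffdiff q = 0.021). With a normal p from the deposited statistic, Hes1 had an adjusted p of 0.042 and Nrarp of 0.092. In the joint table, where q is adjusted over all comparisons, each of the 2 had a Cuffdiff q of 0.00044 between these groups.

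Hes1 is also known as a gene that serum and growth factors induce quickly, so 14 immediate early genes, a list added after the data were seen, are given beside it. All 14 had smaller values in cKO than in WT cells and 7 were called, with a summed level of 6041 FPKM in cKO against 15242 FPKM in WT cells. Nr4a1 had 120 FPKM in cKO against 466 in WT cells, and Ier2 had 195 against 562. In the anagen comparison, where Hes1 was not called, 3 of the 14 genes rose and 3 fell in iKO cells, with sums of 1805 against 2273 FPKM. Cell type marker sums also differed between telogen cKO and WT cells. None of 9 tested bulge stem cell markers was called, with sums of 1097 FPKM in cKO against 1789 in WT cells. Of 4 tested fibroblast markers 1 was higher and none lower, with list sums of 86.8 against 36.2 FPKM. None of 7 suprabasal epidermis markers was called, with sums of 5854 against 4553 FPKM. The part of these lists in the Hes1 result was not tested.

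No receptor or ligand was called in telogen cKO cells. Notch1 had 29.6 FPKM in cKO against 22.8 in WT cells and Notch3 had 5.46 against 4.10, with log2 folds of 0.38 (SE 0.35) and 0.41 (SE 0.32). Notch2 had 6.21 FPKM in cKO against 7.71 in WT cells and Dll1 had 5.31 against 7.38. Jag1 had 48.5 FPKM in cKO against 54.5 in WT cells, Jag2 had 108 against 109, Lfng had 39.3 against 38.5, and Hey1 had 1.06 against 0.986. The approximate 95% interval of the log2 fold was -0.84 to 0.51 for Jag1 and -0.53 to 0.59 for Lfng.

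**Figure D2:**
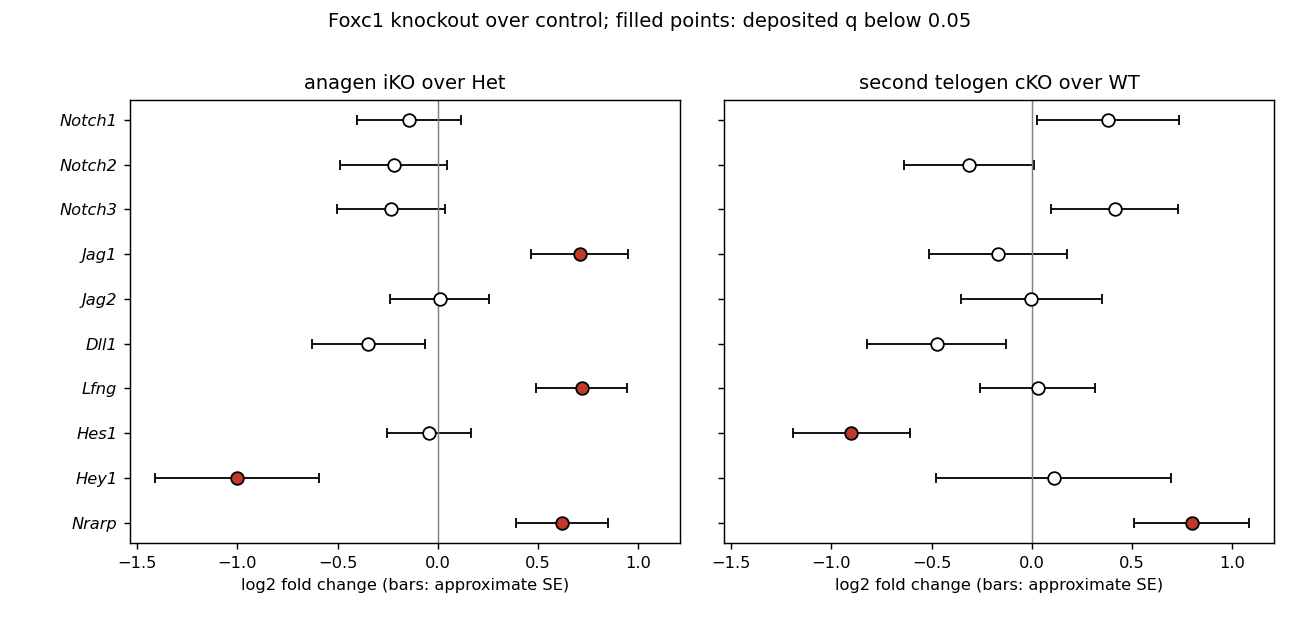
Log2 fold change (x axis) of each of the 10 genes in anagen iKO over Het cells and in second telogen cKO over WT cells, with bars of 1 approximate SE; filled points were called at a deposited q below 0.05. Nrarp is the gene with a call in both panels, at 0.62 and 0.80.

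Nrarp was the single member called in both knockout comparisons, which share no library, and was higher in the knockout each time. The 8 cycling-cell markers were also higher in both. All 8 were higher in telogen iKO over WT cells as well, and lower in telogen than in anagen iKO cells and between controls. Nrarp was not called in those 3 comparisons. In telogen iKO over cKO cells 4 of the markers were lower, as was Nrarp. Their part in the Nrarp result was not tested. The response in telogen cKO over WT cells was set against that in anagen iKO over Het cells by the difference of both log2 folds. This difference, telogen minus anagen, was tested with adjustment over 13033 genes, of which 0.99% differed at an adjusted p below 0.05. None of the 10 genes passed this test. Hes1 and Jag1 had the lowest unadjusted p of the z test among them, at 0.017 and 0.037. The difference was -0.86 for Hes1 (SE 0.36), with an adjusted p of 0.67 from the z test across all genes. It was -0.88 for Jag1 (SE 0.42), with an adjusted p of 0.95. The differences of Lfng, at -0.69 (SE 0.37), and Hey1, at 1.11 (SE 0.71), also missed it. For Nrarp the difference was 0.18, with an approximate 95% interval of -0.54 to 0.90. The driver of Cre, tamoxifen treatment, the genotype of the controls, the strain, the age and the sexes used all changed along with stage here. They cannot be told apart from it.

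In the telogen knockout made with Sox9CreER, Hes1 was above its level in WT cells. In the authors' deposited joint table Hes1 had 151 FPKM in telogen iKO against 96.99 in telogen WT cells, 1.55-fold higher (log2 fold 0.64, SE 0.24, Cuffdiff q = 0.016), and it was the single member called, where 12.9% of 13714 tested genes were called. With a normal p from the statistic this call was lost. Nrarp had 20.2 FPKM in iKO against 16.7 in WT cells, a ratio of 1.21 that was not called (q = 0.36). Jag1 had 79.2 against 56.7 FPKM (q = 0.079), and Jag2 had 81.3 against 113 FPKM (q = 0.091). The other 6 genes differed by 1.29-fold or less and were not called. Of the 14 immediate early genes 2 were higher in iKO than in WT cells (Nr4a1 and Egr3) and none lower, Jun and Ier2 had smaller values, and the median log2((FPKM + 1) ratio) of the list was 0.19. Their part in the Hes1 result was not tested. Both telogen knockout comparisons use the same WT libraries. Strain, age, sex and tamoxifen treatment differ between telogen iKO and WT cells and cannot be told apart from the loss of Foxc1.

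Set directly against each other, the telogen knockouts differed in 3 of the 10 genes, where 14.9% of 13711 tested genes were called. Hes1 had 151 FPKM in iKO against 52.3 in cKO cells, 2.89-fold higher (log2 fold 1.53, SE 0.23, Cuffdiff q = 0.00044). Jag1 had 79.2 FPKM in iKO against 50.6 in cKO cells, 1.57-fold higher (Cuffdiff q = 0.013). Nrarp had 20.2 FPKM in iKO against 29.0 in cKO cells, 1.44-fold lower (Cuffdiff q = 0.042). Hes1 alone kept its call with a normal p from the statistic. Of the 14 immediate early genes, all had larger values in iKO cells and 12 were called, with sums of 19722 FPKM in iKO against 6298 FPKM in cKO cells. Their part in the Hes1 result was not tested. Foxc1 itself had 3.17 FPKM in iKO against 1.66 in cKO cells, 1.91-fold higher (Cuffdiff q = 0.0098). Driver, strain, age, sex and tamoxifen treatment cannot be told apart from the kind of knockout.

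**Figure D3:**
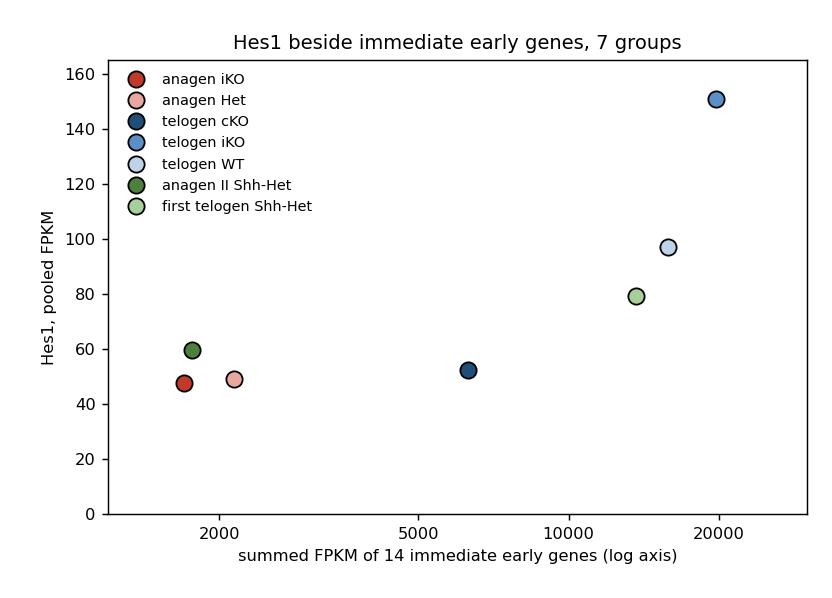
Hes1 (y axis, pooled FPKM) against the summed FPKM of 14 immediate early genes (x axis, log scale) in the 7 groups; each point is a pooled group without error. Telogen iKO, telogen WT and first telogen cells, with sums of 13619 to 19722 FPKM, have the 3 highest Hes1 levels, from 79.2 to 151 FPKM. Telogen cKO cells, with a sum of 6298 FPKM, have less Hes1 (52.3 FPKM) than anagen II cells (59.7 FPKM), whose sum is 1768 FPKM.

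Notch2 and Hes1 were higher in second telogen than in anagen between the 2 iKO groups and between the controls. Telogen cKO cells were not set against an anagen group of the same driver, and their Hes1 level of 52.3 FPKM lay near those of anagen iKO (47.8) and anagen Het cells (49.3). In iKO cells 3 of the 10 genes were higher in telogen than in anagen and none lower, where 33.2% of 13787 tested genes were called and 17.6% were higher, so the count is near that of all genes. Notch2 had 7.58 FPKM in telogen iKO against 3.23 in anagen iKO cells, 2.35-fold higher (log2 fold 1.23, SE 0.29, Cuffdiff q = 0.00044). Notch3 had 4.84 against 3.15 FPKM, 1.54-fold higher (Cuffdiff q = 0.019). Hes1 had 151 against 47.8 FPKM, 3.15-fold higher (log2 fold 1.66, SE 0.23, Cuffdiff q = 0.00044). Age differed with stage, at day 60 and day 30.

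Between controls 4 of the 10 genes were called, 3 higher and 1 lower in telogen WT than in anagen Het cells, where 25.4% of 13932 tested genes were (13.5% with more and 11.9% with less in telogen). Notch2 had 8.01 FPKM in telogen WT against 3.76 in anagen Het cells, 2.13-fold higher (log2 fold 1.09, SE 0.28, Cuffdiff q = 0.00044). Hes1 had 96.99 against 49.3 FPKM, 1.97-fold higher (log2 fold 0.98, SE 0.24, Cuffdiff q = 0.00044), and Jag1 had 56.7 against 36.5 FPKM, 1.55-fold higher (Cuffdiff q = 0.012). Hey1 had 1.02 FPKM in telogen WT against 2.52 in anagen Het cells, 2.46-fold lower (log2 fold -1.30, SE 0.45, Cuffdiff q = 0.0071). These groups also differ in genotype, strain, age, sex and tamoxifen treatment, which cannot be told apart from stage. With a normal p from the statistic, Notch2 and Hes1 stayed called in both stage comparisons and Hey1 in the control one, while Notch3 and Jag1 did not.

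Other markers moved with stage as well. All 14 immediate early genes were called higher in telogen than in anagen in both comparisons, with sums of 19722 against 1703 FPKM in iKO cells and of 15837 FPKM in telogen WT against 2146 FPKM in anagen Het cells. Of 9 tested endothelial and pericyte markers 8 were lower and 1 higher in telogen WT than in anagen Het cells, and Emcn and Rgs5 were listed at 0 in telogen WT cells. In iKO cells 6 of 8 tested were lower in telogen and none higher. Of 12 hair shaft, matrix and inner root sheath markers 8 were lower in telogen in both comparisons, and 1 was higher in iKO cells. Bulge stem cell markers were 3 higher and 1 lower of 10 tested in telogen iKO cells, and 4 higher and 1 lower of 9 in telogen WT cells. Of 7 suprabasal epidermis markers, 5 were higher in telogen iKO than in anagen iKO cells and 6 were higher in telogen WT than in anagen Het cells. All 8 cycling-cell markers were lower in telogen in both comparisons, with sums of 48.9 FPKM in telogen iKO against 218 in anagen iKO cells and of 8.66 FPKM in telogen WT against 58.8 in anagen Het cells. Of 8 fibroblast markers 4 were lower and 1 higher in telogen iKO than in anagen iKO cells, and 5 were lower in telogen WT than in anagen Het cells. Col3a1 had 0.327 FPKM in telogen iKO against 14.01 in anagen iKO cells, and 0.382 in telogen WT against 28.7 in anagen Het cells. Of 7 tested immune markers 6 were higher and 1 lower in telogen iKO than in anagen iKO cells, and 3 were higher in telogen WT than in anagen Het cells. The part of these markers in the members' results was not tested.

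**Figure D4:**
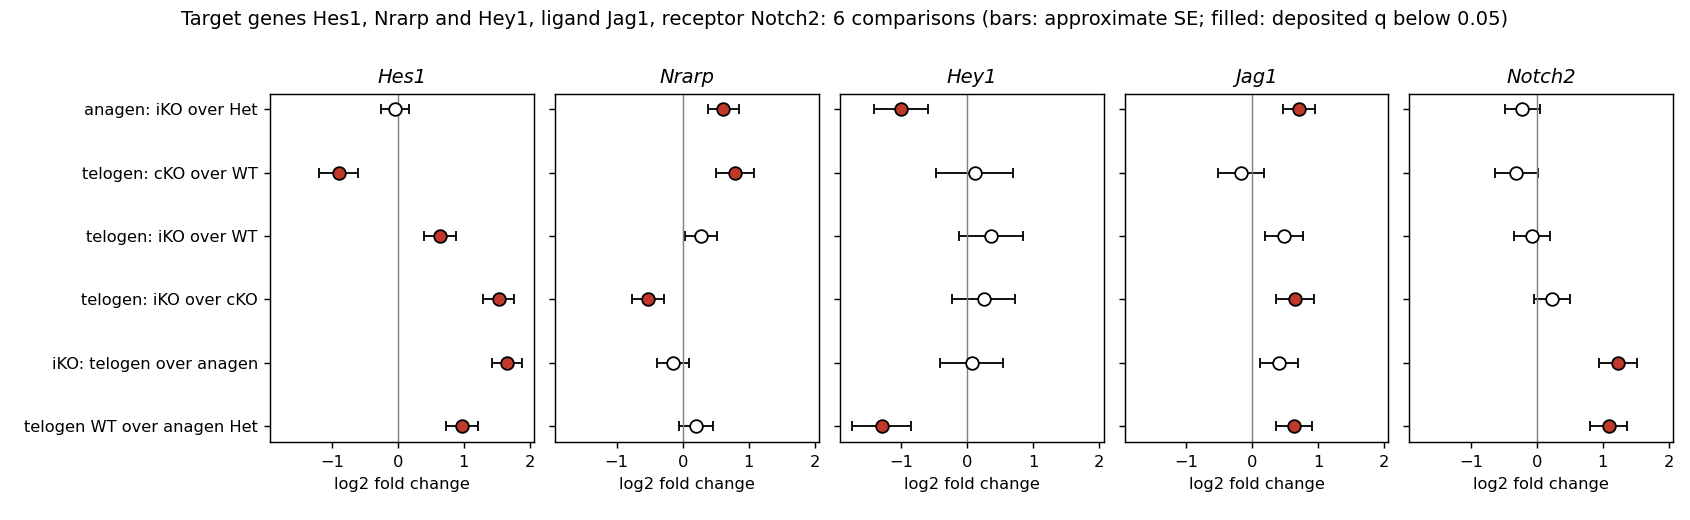
Log2 fold change (x axis) with bars of 1 approximate SE for Hes1, Nrarp, Hey1, Jag1 and Notch2 in 6 comparisons (rows); filled points were called at a deposited q below 0.05. Hes1 ranges from -0.90 in telogen cKO over WT cells to 1.66 in iKO cells of telogen over anagen, while Notch2 is called in both stage comparisons and in no other.

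The anagen II and first telogen libraries, 1 each, give values without a test. Of the 10 genes, 4 differed at least 2-fold, 3 higher and 1 lower in anagen II. Of 11603 genes with at least 1 FPKM in both, 20.5% did, 8.76% higher and 11.7% lower. Notch3 had 7.31 FPKM in anagen II against 2.19 in first telogen cells, 3.33-fold higher. Nrarp had 37.6 against 13.3 FPKM, 2.82-fold higher, and Notch1 had 40.4 against 16.4 FPKM, 2.46-fold higher. Hey1 had 2.22 FPKM in anagen II against 4.62 in first telogen cells, 2.08-fold lower. Jag1, with 47.2 against 46.6 FPKM, was nearly level between the libraries. Several marker lists differed between the libraries as well. Fibroblast markers summed to 1092 FPKM in anagen II against 2304 in first telogen cells, cycling-cell markers to 249 against 23.0 and immune markers to 32.5 against 304. The 14 immediate early genes summed to 1768 FPKM in anagen II against 13619 FPKM in first telogen cells. The part of these markers in the members' values was not tested.

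Beyond the 10 members, 49 further Notch pathway genes were listed by role, from a list chosen with earlier results of these data known, and all were found in the tables. Of these, 29 had at least 5 FPKM in all 7 groups, among them the gamma-secretase subunit genes Ncstn, Aph1a and Psenen and the RBPJ gene Rbpj itself. The 8 that stayed below 1 FPKM in all groups were Notch4, Dll3, Dll4, Neurl1a, Dtx1, Hes5, Hes7 and Hey2. Among all tested genes in anagen, 10.3% were called in either direction, 5.18% higher and 5.08% lower in iKO cells. In iKO cells 4 of 41 tested further genes fell and none rose, a count of calls near that of all genes. These were the corepressor gene Ctbp2 (25.8 FPKM in iKO against 40.1 in Het cells, Cuffdiff q = 0.0077), the Deltex ubiquitin ligase gene Dtx2 (11.0 against 17.2 FPKM, q = 0.014), the gamma-secretase gene Aph1b (4.93 against 7.75 FPKM, q = 0.020) and Hes6, a Hes family gene (11.0 against 17.2 FPKM, q = 0.044). None of the 4 stayed called with a normal p from the statistic.

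In telogen cKO over WT cells 6.62% of all tested genes were called, 3.75% higher and 2.87% lower. Of the further genes, 3 of 38 tested fell in cKO cells and none rose, a count of calls near that of all genes. Dlk1, a Delta-like protein without the domain that activates Notch receptors, had 0.450 FPKM in cKO against 2.94 in WT cells (log2 fold -2.71, SE 0.57, Cuffdiff q = 0.0016). Numb, whose protein restrains Notch, had 17.2 FPKM in cKO against 30.3 in WT cells, 1.76-fold lower (Cuffdiff q = 0.015), and the ligand-directed ubiquitin ligase gene Neurl1b had 2.52 against 4.53 FPKM (Cuffdiff q = 0.025). Dlk1 alone of these stayed called with a normal p from the statistic, and Numb had an adjusted p of 0.23 and Neurl1b of 0.20. The joint table had 5 of the listed genes called between the same groups, with Rbpj at 17.8 FPKM in cKO against 25.3 in WT cells and the ADAM protease gene Adam10 at 22.9 against 14.998 FPKM added. In telogen iKO over WT cells, 1 of 39 rose and 2 fell, where 7.01% and 5.88% of all tested genes did. Kat2b, a histone acetyltransferase gene, had 20.6 FPKM in iKO against 13.6 in WT cells, Hes6 had 12.1 against 24.5 FPKM, and Dlk1 had 0.0735 against 3.05 FPKM. The call of Kat2b was lost with a normal p from the statistic.

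**Figure D5:**
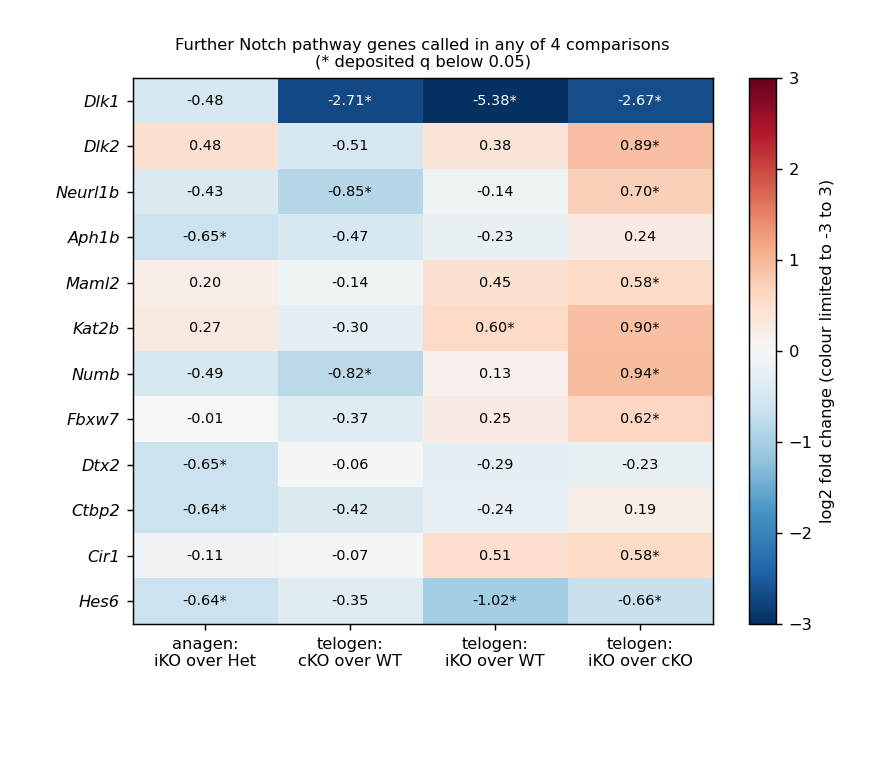
Log2 fold change (colour and number) of the 12 further pathway genes called in any of 4 comparisons (columns); asterisks mark a deposited q below 0.05. Dlk1 has the lowest values, -2.71 in telogen cKO and -5.38 in telogen iKO over the shared WT libraries, and Numb is -0.82 in cKO over WT and 0.94 in iKO over cKO cells.

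Of the 39 further genes tested between the telogen knockouts, iKO cells had more of 7 and less of 2, against 7.53% and 7.35% of all tested genes. Numb had 34.4 FPKM in iKO against 17.9 in cKO cells, 1.92-fold higher (Cuffdiff q = 0.00044), and Kat2b had 20.6 against 11.0 FPKM (q = 0.00044). Dlk1 had 0.0735 FPKM in iKO against 0.468 in cKO cells (q = 0.0012). The log2 fold was 0.89 for the Delta-like gene Dlk2, 0.70 for Neurl1b, 0.62 for the ubiquitin ligase gene Fbxw7, 0.58 for the Mastermind gene Maml2 and 0.58 for the corepressor gene Cir1. Numb, Kat2b and Dlk1 stayed called with a normal p from the statistic, and the others did not. Between stages, 14 of 40 were called in iKO cells, 7 in each direction, and 13 of 41 in controls, 7 higher and 6 lower in telogen. Among all tested genes 17.6% were higher and 15.5% lower in iKO cells, and 13.5% higher and 11.9% lower in controls, so these counts are near those of all genes. The gamma-secretase gene Aph1c had 1.85 FPKM in telogen iKO against 0.587 in anagen iKO cells, and 1.81 in telogen WT against 0.791 in anagen Het cells. Dtx4, a Deltex family gene, was lower in telogen in both, with log2 folds of -1.82 in iKO cells and -2.12 in controls, and Ctbp2 had log2 folds of -0.61 and -1.01. Mib2, a ligand-directed ubiquitin ligase gene, was called higher in telogen in both, with log2 folds of 0.90 in iKO cells and 0.60 in controls. The corepressor gene Spen (0.84 and 1.08), Fbxw7 (-0.58 and -0.83) and the Hes family gene Heyl (-4.11 and -5.40) were also called in both. Heyl had under 1 FPKM in all these groups. Dtx3 (0.89) was called in iKO cells alone. Dlk1 (3.98) was called in controls and was not tested in iKO cells. Adam10 was lower in telogen in both, with 18.6 FPKM in telogen iKO against 31.1 in anagen iKO cells and 14.998 in telogen WT against 26.7 in anagen Het cells. Rbpj was 1.48-fold higher in telogen iKO than in anagen iKO cells (Cuffdiff q = 0.024) and was not called between controls (q = 0.30). A normal p from the statistic left 6 further genes called in iKO cells and 8 in controls. The calls of Ctbp2, Dtx3, Rbpj, Spen and Fbxw7 in iKO cells and of Spen and Mib2 in controls were lost.

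Among the members, similar patterns over the 7 pooled groups were described by Pearson's r of log2(FPKM + 1), with no test. Each point is a pooled value of 1 or 2 libraries, and the groups differ in strain, age, sex and tamoxifen treatment. Notch1 and Notch3 were the most alike at r = 0.97, and Nrarp was most like Notch1 at r = 0.86. Notch1, Notch3 and Nrarp all had their highest value in anagen II and their lowest in first telogen cells, groups of 1 library each. Hes1 was most like Notch2 at r = 0.77 and had r = -0.25 with Nrarp. In the whole table, among 4565 genes with at least 5 FPKM in a group and a range of at least 1, genes with a pattern like that of Hes1 included Slc38a2 (r = 0.98) and Errfi1 (0.95). Those most like Nrarp were Cox6b2, Mgst2 and Cenpp (0.96 each), and those most like Jag1 were Plk2 (0.87), Il6ra (0.87) and Rps15a-ps4 (0.85). Each r rests on 7 points.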

How the data were processed

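RNA from 12 libraries of sorted cells was made into TruSeq mRNA libraries, per the labels' protocols. Reads were processed with TopHat, Cufflinks and Cuffdiff on build mm9, per the submitters' processing notes; versions and settings are not given in the sources used here. Deposited by the authors were 3 tables (anagen, second telogen, and a joint table of 21 comparisons), each with FPKM per group, the log2 fold, a test statistic (a signed score), a p-value and a q-value. Library replicates were pooled by the authors, so p-values rest on the spread that their test assigned to groups of 1 or 2 libraries. That spread changed between tables for the same libraries. For Hes1 in telogen cKO over WT cells the SE was 0.29 in the telogen table and 0.25 in the joint table. In the joint table the deposited q is adjusted over all comparisons, so a call there can rest on a p of up to 0.0126, against 0.0051 (anagen) and 0.0033 (telogen).

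From these were computed signed folds, SE as log2 fold divided by the statistic, and 95% intervals as normal intervals from that SE. Also computed were the z test of the difference of 2 folds with Benjamini-Hochberg adjustment, and list medians with a pseudocount of 1 FPKM. The z test was run on simulated data with normal noise of the same SE, which cannot show whether that SE is right. The SE is approximate: the deposited p often lies below the normal p of the statistic. A gene was called at q below 0.05. Python 3.11.15, pandas 2.3.3, numpy 2.4.6 and scipy 1.17.1 were used. Members, lists and tests were chosen with earlier results of these data known. Named further pathway genes are those called, up to 8 per comparison by lowest q; a few genes that the naming rules select are not reported here.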

Additional observations from a re-analysis of the deposited data

Results flagged for a closer look

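Levels that differed between the telogen knockouts themselves, by the authors' test of telogen iKO over telogen cKO cells, are listed here as values. Among the members the log2 fold was 1.53 for Hes1, 0.65 for Jag1 and -0.53 for Nrarp. Among the further pathway genes it was 0.94 for Numb, 0.90 for Kat2b, 0.89 for Dlk2, 0.70 for Neurl1b, 0.62 for Fbxw7, 0.58 for Maml2, 0.58 for Cir1 and -2.67 for Dlk1. Driver, strain, age, sex, tamoxifen treatment and the remaining level of Foxc1 differ between these groups.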

How the results depend on the processing

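No paired analysis was possible because the tables hold 1 pooled value per group, and for the same reason no library could be left out. At a deposited q below 0.01 the called members were 2 in anagen iKO over Het (Lfng and Jag1), 0 in telogen cKO over WT, 0 in telogen iKO over WT and 1 in telogen iKO over cKO cells; the called further pathway genes were 1 in anagen, 1 in telogen cKO over WT, 6 in iKO telogen over anagen, 7 in control telogen over anagen and 3 in telogen iKO over cKO cells. Of all tested genes, 6.77% (anagen), 4.24% (telogen cKO over WT), 7.40% (telogen iKO over WT), 23.4% (iKO by stage), 17.3% (controls) and 8.37% (telogen iKO over cKO) passed that threshold. With a normal p of the deposited statistic, added after seeing the data, called members were 1 in anagen, 1 in telogen cKO, 0 in telogen iKO over WT and 1 in iKO over cKO cells, and called further genes were 0, 1, 6, 8 and 3 in the same 5 comparisons. Over all genes the normal p made 783 calls beside 1408 in anagen, 556 beside 897 in telogen cKO over WT, 763 beside 1769 in telogen iKO over WT, 3221 beside 4572 in iKO telogen over anagen, 2241 beside 3539 between controls and 851 beside 2041 in telogen iKO over cKO cells. The joint table had 5 further genes called in telogen cKO over WT cells. Its Cuffdiff q between these groups was 0.00044 for Hes1 and for Nrarp, below 0.01, unlike in the telogen table. For the difference of knockout effects, 0 of 10 members passed in the joint table or with the larger SE. No other alternative moved a count by over 1.5 times. The median of the members in iKO cells, telogen over anagen, was 0.39 and moved to 0.26 with a pseudocount of 5. No called member reversed its direction between the 2-group and the joint tables. With p adjusted within the comparison, the call of Nrarp between the telogen knockouts and, in the joint table, that of Hey1 in anagen were lost. Depth is unknown, so no limit on low levels such as those of Hey1 can be given.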
